A study of Mus musculus with 8 samples.

Results

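Clone E6, an *Aire*-mutant derivative of the medullary thymic epithelial cell (mTEC) line mTEC 3.10, was compared with the unedited (WT) line after adhesion, that is, after 12 h of co-culture with thymocytes. The comparison took the 4 libraries of co-cultured cells, 2 of E6 and 2 of WT, out of the 8 RNA-Seq libraries of the series. The other 4, E6 and WT without thymocytes, are called before adhesion and were used to share the estimate of the spread and as the reference for the same contrast without thymocytes. mTEC 3.10 is a murine line of C57BL/6 background. Both cell types were grown at the same passage and in the same medium, then received thymocytes of C57BL/6 mice at 50 thymocytes per mTEC. Culture before the thymocytes were added lasted 12 h for WT replicate 1 and E6 replicate 2, and 24 h for WT replicate 2 and E6 replicate 1. The labels give the genotypes as wildtype and Aire +/-, whereas the methods describe indels of exon 3 in both *Aire* alleles of E6. E6 is a single clone, grown from 1 sorted cell after electroporation with a Crispr-Cas9 vector, so that the edit and other differences of that clone from the line cannot be told apart. The culture times set the 2 libraries of each group apart as separate cultures, except in WT before adhesion, where both had 12 h and nothing states it. The spread between libraries behind the p-values therefore includes culture time, and in WT before adhesion it may be technical.

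Medullary epithelium of the thymus displays antigens of peripheral tissues to developing T cells. AIRE, a nuclear protein, switches on many of these genes, and T cells that bind them strongly are deleted or turned into regulatory cells. This meeting depends on close contact, in which matrix proteins, integrins, nectins and receptors of the immunoglobulin family hold thymocyte and epithelial cell together, while thymocytes and mTECs exchange signals of the NF-kB and interferon pathways. A co-culture library holds RNA of the mTECs and of the thymocytes that remained with them, and in bulk RNA fewer cells of a type and less RNA per cell cannot be told apart.

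Between 15036763 and 20145154 counts fell on genes in the 4 libraries. WT replicate 1 stood apart and is given first, and separately, in each listing below. The share of reads on genes was 66.7% in it and 75.7 to 78.8% in the other 3. Its log2 CPM (counts scaled to the size of the library) fell by 0.46 for each 10 percentage points of GC content, against slopes of 0.06 to 0.13 in the others. The 2 WT libraries lay 76.6 apart by Euclidean distance over the log2 CPM of all tested genes, and the 2 E6 libraries 27.8. E6 lay 71.9 and 73.7 from WT replicate 2 but 96.1 and 96.6 from WT replicate 1, so that WT replicate 2 was closer to both E6 libraries than to its own replicate. The mean distance between E6 and WT was 1.62 times that between replicates. At least 1.5-fold differences separated the WT replicates in 4399 of 11672 tested genes, and the E6 replicates in 452.

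**Figure D1:**
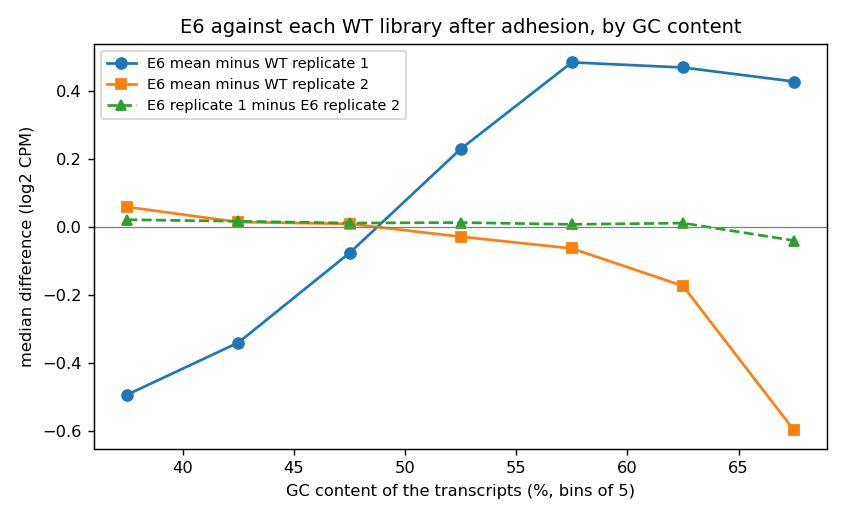
Median difference in log2 CPM by GC content of the transcripts in bins of 5 percentage points, over genes averaging 2 or more in log2 CPM. Against WT replicate 1 the E6 libraries went from -0.49 in the bin of 35 to 40% GC to 0.48 at 55 to 60%, against WT replicate 2 they stayed between 0.06 and -0.06 over the same bins, and the 2 E6 libraries differed by at most 0.02 there.

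*Ppig*, a prolyl isomerase of the splicing machinery, measured 935 CPM in WT replicate 1, 205 in WT replicate 2, and 239 and 231 in E6. *Nexn*, an actin-binding protein, measured 341 and 79.1 CPM in WT against 88.2 and 86.7 in E6, and *Pura* measured 148 and 36.6 against 38.8 and 40.3. The opposite order held for small proteins of the ribosome and the respiratory chain. *Rps14* measured 43.9 and 252 CPM in WT and 201 and 189 in E6, *Rpl36* 61.2 and 259 against 162 and 175, and *Atp5g2* 17.0 and 72.7 against 61.5 and 62.8. In all 6 genes the E6 libraries lay closer to WT replicate 2 than to WT replicate 1. None of the 6 passed the test, with log2 FC between -1.28 and 0.46. Of the 4 other genes chosen by the same rule, *Rpl37a*, *Ndufb11* and *2610203C20Rik* did not pass it either, and *Hmgn5* did, at 394 and 91.2 CPM in WT against 50.8 and 52.0 in E6. Its log2 FC was -2.24 with both WT libraries and -0.80 without WT replicate 1.

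After adhesion, 1040 mRNAs were differentially expressed (DE) between E6 and WT, at an FDR under 0.05 and a fold change (FC) of at least 1.5. They made up 8.91% of the tested genes. Of these, 566 (4.85% of the tested genes) were higher and 474 (4.06%) were lower in E6. The groups did not overlap in 52.1% of all tested genes, including all 1040 DE mRNAs. The count rose to 1825 (15.6%) without WT replicate 1, with 1002 higher and 823 lower, and 886 of the 1040 were among them. None of the 1040 changed sign, but with groups that do not overlap, leaving out 1 library could hardly change it. With a GC correction of each library there were 1394 (11.9%), 6.57% of the tested genes higher and 5.37% lower. Both settings and the fit of all libraries shared 834 DE mRNAs, 482 higher and 352 lower.

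The GC content of the DE mRNAs moved with WT replicate 1. With both WT libraries, the median GC content was 51.4% in the mRNAs higher in E6 and 47.2% in those lower, against 49.6% in all tested genes. The order was the reverse without WT replicate 1, 49.5% and 51.6%, and with the GC correction the medians were 50.3% and 49.8%. The 102 lower mRNAs lost without WT replicate 1 had a median GC content of 45.2%, and the 451 gained had 54.1%.

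Other libraries also moved the count. Leaving out E6 replicate 1 after adhesion left 43 DE mRNAs, and leaving out E6 replicate 2 left 27. Without E6 replicate 1 or 2 before adhesion there were 488 and 491, and without WT replicate 1 or 2 before adhesion 358 and 356. Without WT replicate 2 after adhesion, which leaves WT replicate 1 alone in its group and assumes that it varies like the other groups, there were 4410. The same assumption holds for each fit with 1 library left out. In the fit of the 4 co-culture libraries alone no mRNA passed (the smallest FDR was 0.0510), and 1850 had an unadjusted p under 0.05. DESeq2 gave 1354 in the 8 libraries. In all 8 fits with 1 library left out and in the fit of all libraries, 26 mRNAs were DE, 20 higher and 6 lower. Those lower were *Gpc4*, *Cldn9*, *Timp3*, *Fgfr1*, *Gprin3* and *Scd1*.

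*Timp3*, a matrix-bound inhibitor of metalloproteinases, was the largest fall among mRNAs averaging 1 or more in log2 CPM. It measured 437 CPM in WT replicate 1, 305 in WT replicate 2 and 9.88 and 9.62 in E6, with log2 FC -5.25 ± 0.21 (SE, with an FDR of 0.000214). *Timp3* lies within *Syn3*, a synapsin gene of the opposite strand on chromosome 10. *Syn3* also fell, from 37.3 and 15.8 CPM to 2.99 and 2.39, and as the strand setting of the counting is not given in the sources used here, reads of the 2 genes may not be told apart. *Fgfr1*, a receptor of fibroblast growth factors, measured 8.02 and 8.47 CPM in WT and 0.838 and 0.836 in E6 (log2 FC -3.29 ± 0.23, FDR 0.00160). Neither replicate of WT came near E6 in these genes.

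*Smpd3*, a neutral sphingomyelinase, fell from 4.75 and 11.9 CPM to 0.419 and 1.02. *Tspan7*, a tetraspanin, fell from 8.66 and 4.94 CPM to 0.778 and 1.02, *Gprin3* from 10.7 and 9.34 to 1.02 and 1.49, and *Tbc1d9* from 15.6 and 13.6 to 2.33 and 2.03. *Zfp704*, *Fam73a* and *Fam198b*, with log2 FC of -3.56, -3.12 and -2.93, all lie on chromosome 3. In each gene of this group the lower WT library was at least as high as 4.75 CPM and the higher E6 library at most 2.33 CPM.

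*Chst1*, a sulfotransferase of keratan sulfate, was the largest rise at such levels. It measured 0.355 and 0.339 CPM in WT and 11 and 10.5 in E6, with log2 FC 4.93 ± 0.23 (SE, with an FDR of 0.000405). *Clip4*, of a family of microtubule-binding proteins, rose from 0.213 and 0.726 CPM to 13.8 and 15.5, a log2 FC of 4.83 ± 0.38 (FDR 0.00220). *Pvrl3*, which codes for nectin-3, an adhesion molecule of cell junctions, rose from 1.63 and 0.677 CPM to 20.7 and 19.2, a log2 FC of 4.18 ± 0.34 (FDR 0.00220). *Havcr2*, which codes for the immune receptor TIM-3, rose from 0.780 and 0.532 CPM to 8.20 and 9.20. Both WT libraries were low in *Chst1*, as was WT replicate 1 in *Clip4*, against the 0.200 and 0.149 CPM that 3 counts give in WT replicates 1 and 2.

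The other 6 of the 10 largest rises are genes that immune cells or interferon-treated cells are known for. *Oas3*, *Slfn2* and *Ifi202b* are induced by interferon, with log2 FC of 3.56, 3.40 and 3.26. *Dntt*, *Ikzf3* and *Ptpn22*, with 3.28, 3.13 and 3.25, code for the DNA polymerase TdT of rearranging thymocytes, a lymphoid transcription factor and a phosphatase of T cell receptor signalling. Before adhesion *Ptpn22*, *Oas3*, *Slfn2* and *Ifi202b* were also DE and higher in E6, with log2 FC of 3.41, 3.83, 7.16 and 2.41. *Dntt* and *Ikzf3* were not DE there. *Slfn2* and *Ifi202b* belong to multigene families whose members could share reads. The 20 largest rises and falls were chosen among mRNAs called without WT replicate 1, so their call in that fit was fixed by the choice. All 20 genes of both groups kept their call without any 1 library of WT or of E6 before adhesion, 9 without E6 replicate 1 after adhesion (highest FDR 0.136) and 7 without E6 replicate 2 (highest FDR 0.116).

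**Figure D2:**
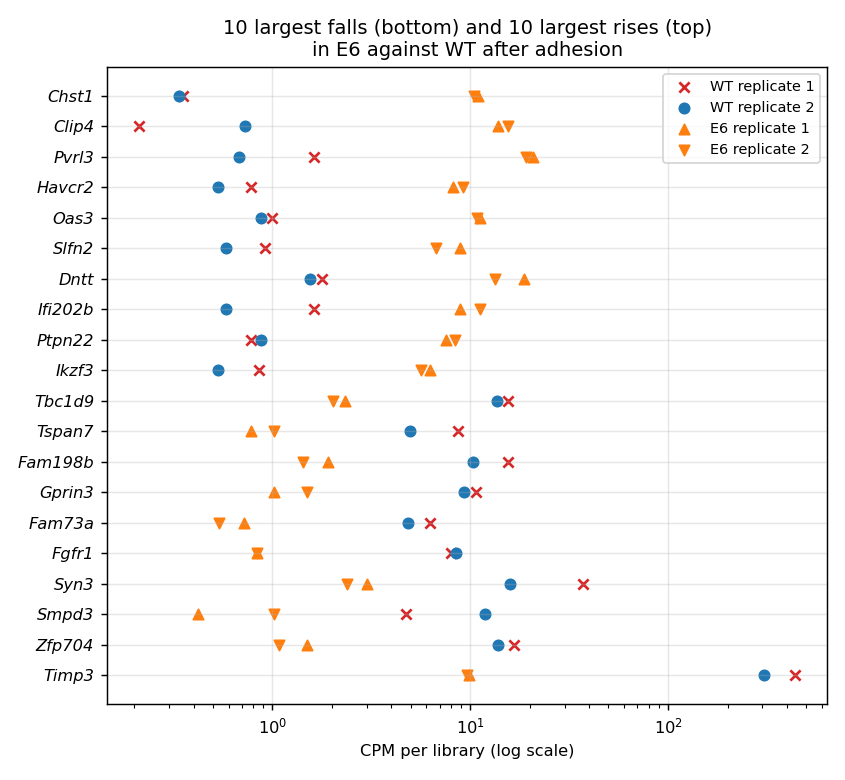
CPM on a log axis of the 10 largest rises and the 10 largest falls, 1 mark per library, with WT replicate 1 as crosses. Only genes where the groups did not overlap were eligible, so the choice places the 2 E6 marks on 1 side of both WT marks. The genes go from *Timp3* at 437 and 305 CPM in WT against 9.88 and 9.62 in E6 to *Chst1* at 0.355 and 0.339 against 11 and 10.5.

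The most abundant DE mRNAs changed by less. *Fn1*, which codes for the matrix protein fibronectin, measured 5412 and 5557 CPM in WT and 9160 and 9524 in E6, with log2 FC 0.77 ± 0.13 (SE, with an FDR of 0.0154). *Msln*, which codes for the surface protein mesothelin, had a log2 FC of 0.69, and the laminin chain *Lama3* 0.89. On the lower side stood *Nap1l1*, a histone chaperone, at 1726 and 1161 CPM against 870 and 809. *Aars* and *Nars*, the ligases that load tRNA with alanine and asparagine, had log2 FC of -0.74 and -0.96. Without WT replicate 1, *Msln* (log2 FC 0.49), *Nap1l1* (-0.44) and *Aars* (-0.52) kept their sign and fell under the FC limit.

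*Aire* itself was at the floor. It had 0 and 3 counts in WT and 0 and 3 in E6, at most 0.179 CPM, and was not tested. At this depth no difference of *Aire* mRNA was detectable, and as the indels alter a coding exon, the mRNA count does not check the edit. *Fezf2*, a regulator of other tissue antigens, was without a count in WT and had 2 counts in each E6 library. *Cd80*, a costimulatory ligand, had 3 and 0 counts against 3 and 4. Of 42 genes of peripheral tissues that mTECs are known to express, 26 had 0 counts in all 4 libraries and 3 were tested. None of the 3 passed, *Mbp* at 60.8 and 83.7 CPM in WT against 78.8 and 79.3 in E6 among them.

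Of 28 markers of epithelium and of mature mTECs, 16 were tested. Of these 2 rose (12.5%, against 4.85% of all tested genes), both of the MHC class II pathway. *Cd74*, the invariant chain, rose from 0.709 and 0.339 CPM to 5.63 and 6.45, a log2 FC of 3.58 ± 0.39 (SE, with an FDR of 0.00488). It was already DE before adhesion, at 0.0607 and 0 CPM in WT against 2.22 and 2.30 in E6 (log2 FC 5.80). *H2-Aa*, a class II chain, had 3 counts in both WT libraries together and 38 in E6, a ratio of 13.2 with a counting interval of 4.18 to 66.7 (95%, exact binomial). *H2-Aa* had no count before adhesion and is among the genes nearly absent there, which rose with the leukocyte markers below. Neither call was kept without either E6 library after adhesion. The summed level of the 28 markers was 4693 and 6113 CPM in WT and 5749 and 5728 in E6. Of 8 markers of cortical epithelium 3 were tested and none passed, *Ly75* at 28.9 and 31.7 CPM against 22.4 and 22.3 and *Prss16* at 2.84 and 5.85 against 3.29 and 3.41.

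Thymocyte mRNAs were more abundant in the E6 co-cultures. Of 32 thymocyte markers, 22 had a row in the tables used here and 19 were tested. Of these 15 rose (78.9%, against 4.85% of all tested genes) and none fell. *Dntt* rose from 1.77 and 1.55 CPM in WT to 18.7 and 13.4 in E6, with log2 FC 3.28 ± 0.29 (SE, with an FDR of 0.00674). *Ptprc*, the leukocyte surface phosphatase CD45, rose from 2.20 and 1.98 CPM to 18.3 and 14.0, and *Coro1a*, an actin regulator of leukocytes, from 0.497 and 0.387 to 4.73 and 3.05. *Tcf7*, a transcription factor of T cell development, measured 13.6 and 6.19 CPM against 50.8 and 39.1 (log2 FC 2.21 ± 0.38, FDR 0.0177). The groups did not overlap in these 4 genes, as in all DE mRNAs. Both E6 libraries lay above both WT libraries in 26.8% of all tested genes. The summed level of the 22 genes was 111 and 115 CPM in WT and 317 and 277 in E6, and 80.5 to 105 in the 4 libraries before adhesion.

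Leaving out WT replicate 1 kept 14 of the 15 calls and gave 17 of 19 in all. The median log2 FC was then 2.89, against 2.54 with both WT libraries and -0.02 over all tested genes. With either E6 library after adhesion left out, 0 of the 15 kept the call, at an FDR of up to 0.218, and 9 did without either WT library before adhesion. Of all tested genes, 231 had at most 3 counts in each library before adhesion, and 122 of these were higher in E6 after adhesion while 0 were lower. Those near 0 in WT passed the filter on low counts only through the E6 libraries, which sets their direction, so that these counts are a description and no test. On the thymocyte list, 13 of the 19 tested genes are of this kind. Only 9 of the 122 are on the thymocyte list and 4 on the myeloid list. Their levels summed to 74.7 and 65.2 CPM in WT and to 501 and 421 CPM in E6. *Bcl11b* and *Thy1*, a transcription factor and a surface protein of T cells, averaged 11.8 and 11.6 CPM in E6. With these 231 genes set aside, 444 mRNAs were higher and 474 lower.

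Of 16 markers of macrophages and dendritic cells 10 were tested and 4 rose (40%, against 4.85% of all tested genes). Among them *Mpeg1*, a pore-forming protein, rose from 0.497 and 0.823 CPM to 4.31 and 4.54. *C1qa*, a complement chain, rose from 0.213 and 0.290 to 2.45 and 1.43, and *Emr1*, which codes for the macrophage marker F4/80, from 0.284 and 0.242 to 2.21 and 1.25. All 4 were nearly absent before adhesion, and 0 of the 4 calls were kept without either E6 library after adhesion (highest FDR 0.267). Their summed level, 52.2 and 77.8 CPM in WT and 78.6 and 77.5 in E6, came mostly from genes that were also present before adhesion, where it was 59.5 to 80.3 CPM. None of the 8 B cell or the 9 erythroid markers was tested, with sums of at most 0.898 and 0.179 CPM after adhesion. *Cd79a* measured 0.497 and 0.145 CPM in WT and 0.239 in each E6 library, *Cd79b* had 1 count in WT and 10 in E6, *Alas2* had 0 counts in WT and 5 in E6, and *Hba-a1* had 0 in all 4. The endothelial list had 1 tested member, *Pecam1*, which rose from 0.142 and 0.194 CPM to 1.86 and 1.31, and the fibroblast list 3, of which *Vim* rose from 0.922 and 0.871 CPM to 3.23 and 3.88. Leukocytes are also known to express both.

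Interferon-induced genes were higher in E6. Of 48 such genes 43 were tested. Of these 12 rose (27.9%, against 4.85% of all tested genes) and none fell, with a median log2 FC of 1.09. This was 28 of 43 without WT replicate 1, 65.1% against 8.58% of all tested genes, with a median of 1.25. *Lgals3bp*, a secreted glycoprotein that binds galectins, measured 7.80 and 7.55 CPM in WT and 64.9 and 59.7 in E6, with log2 FC 3.02 ± 0.19 (SE, with an FDR of 0.00149). *Oas3*, an enzyme that makes the second messenger of RNase L when it meets double-stranded RNA, measured 0.993 and 0.871 CPM against 11.2 and 10.8 in E6. Its neighbour *Oas2* had 1 count in the WT libraries together and 227 in E6, a ratio of 236 with a counting interval of 41.9 to 9359.8. *Rtp4* rose from 0.639 and 0.532 CPM to 5.45 and 4.30. The summed level of the list was 1074 and 840 CPM in WT and 1289 and 1262 in E6.

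Of the 12 genes that rose, 4 lie on chromosome 5, among 7 tested members there. With either E6 library left out, 2 of the 12 kept the call (highest FDR 0.223). The thymocyte markers moved with this list, and thymocytes express interferon-induced genes as well. The part of thymocyte RNA in these levels was not tested. Before adhesion, where the thymocyte list had no DE mRNA, 6 of the 43 were higher in E6 and none lower, with a median of 0.76.

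The promoters of 2 called interferon genes are shown because they carry the interferon-stimulated response element, searched on either strand as GAAA, any 2 bases and GAAA, in capitals. Each is the 300 bases from 250 before to 50 after a gene start, from RefSeq on GRCm38.p6, on the minus strand at chr5:120777610-120777909 for *Oas3* and chr5:120907476-120907775 for *Oas1a*. Both read 5′ to 3′.
Oas3: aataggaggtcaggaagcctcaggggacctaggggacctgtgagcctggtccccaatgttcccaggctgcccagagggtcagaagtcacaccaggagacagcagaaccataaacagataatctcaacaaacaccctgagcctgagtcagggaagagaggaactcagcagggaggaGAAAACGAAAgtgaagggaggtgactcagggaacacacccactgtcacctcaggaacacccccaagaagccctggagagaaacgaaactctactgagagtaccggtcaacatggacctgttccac
Oas1a: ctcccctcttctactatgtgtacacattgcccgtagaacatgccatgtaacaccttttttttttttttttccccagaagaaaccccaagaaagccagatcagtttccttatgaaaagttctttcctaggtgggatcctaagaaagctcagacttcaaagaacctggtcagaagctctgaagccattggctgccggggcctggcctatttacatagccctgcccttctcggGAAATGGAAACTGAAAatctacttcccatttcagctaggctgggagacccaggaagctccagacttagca
The match begins 75 bases before the start of *Oas3*, and 20 and 14 bases before that of *Oas1a*, where the 2 matches overlap. Among the 34 tested members with a promoter in the RefSeq table, 16 held the letters, 3 of the 8 that rose and 13 of the other 26. Of 27025 genes with a RefSeq promoter, 3.99% held them. A match is a description of the letters and shows no binding.

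Class I antigen presentation, NF-kB and chemokine genes gave fewer calls, all of them rises. The shares that rose were 10.5%, 19.2% and 30.8%, against 4.85% of all tested genes. Of 19 tested class I genes 2 rose, *Tapbp*, a peptide-loading chaperone, from 39.3 and 50.9 CPM to 96.6 and 93.1, and *Psmb8*, an immunoproteasome subunit, from 0 and 0.339 CPM to 2.93 and 1.85. Of 26 NF-kB genes 5 rose. *Icam1* and *Vcam1*, receptors for leukocyte integrins, rose from 0.497 and 1.06 CPM to 3.11 and 4.54 and from 1.56 and 2.08 to 5.27 and 7.77. *Birc3*, an inhibitor of apoptosis, rose from 1.49 and 1.35 to 3.53 and 3.70. The inhibitor *Nfkbia* did not pass, and its replicates differed, at 46.3 and 103 CPM against 82.7 and 156. In both cell types the library cultured for 24 h and that cultured for 12 h did not hold the same order, since *Nfkbia* was higher in the 24 h library of WT and in the 12 h library of E6. Of 13 tested chemokines 4 rose, at low levels: *Ccl22* from 0.142 and 0.145 CPM to 0.958 and 1.02, *Cxcl3* from 0.213 and 0.435 to 1.92 and 2.39, and *Ccl4*, with 2 counts in WT and 34 in E6, by a ratio of 17.7 (counting interval 4.53 to 152). These 3 were nearly absent before adhesion, as were most thymocyte markers, and 1 of the 4 remained with such genes left out. None of the NF-kB or chemokine calls held without E6 replicate 1 or without E6 replicate 2.

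Genes of cholesterol synthesis were lower in E6. The pathway builds sterols from acetyl-CoA, and the factor SREBP-2, coded by *Srebf2*, is known to switch its genes on together. Of 25 tested genes 13 fell and none rose, 52.0% against 4.06% of all tested genes, with a median log2 FC of -0.77. *Hmgcs1*, the first committed enzyme, measured 507 and 421 CPM in WT and 168 and 159 in E6, with log2 FC -1.51 ± 0.13 (SE, with an FDR of 0.00256). *Cyp51*, a sterol demethylase, measured 1162 and 941 CPM against 464 and 447 (log2 FC -1.21 ± 0.14, FDR 0.00583), and *Acat2*, which makes acetoacetyl-CoA, 103 and 88.2 against 46.9 and 39.7. The groups did not overlap in these 3 genes, as in all DE mRNAs. Both E6 libraries lay below both WT libraries in 25.3% of all tested genes.

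*Srebf2* itself, named for its role, did not pass, at 160 and 286 CPM in WT and 206 and 214 in E6. The summed level of the list was 4264 and 4269 CPM in WT and 2661 and 2609 in E6. Without WT replicate 1, 16 of 25 fell, and the 13 were among them. Without E6 replicate 1 after adhesion 1 of the 13 kept the call, and without E6 replicate 2 0 did, with FDR of up to 0.265.

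The promoter of *Hmgcs1*, also from RefSeq on GRCm38.p6, at chr13:119690101-119690400 on the plus strand, was the 1 promoter of 17 cholesterol genes in the table that held a sterol regulatory element of the letters TCACNCCAC on either strand. The match, in capitals, begins 137 bases before the gene start.
Hmgcs1: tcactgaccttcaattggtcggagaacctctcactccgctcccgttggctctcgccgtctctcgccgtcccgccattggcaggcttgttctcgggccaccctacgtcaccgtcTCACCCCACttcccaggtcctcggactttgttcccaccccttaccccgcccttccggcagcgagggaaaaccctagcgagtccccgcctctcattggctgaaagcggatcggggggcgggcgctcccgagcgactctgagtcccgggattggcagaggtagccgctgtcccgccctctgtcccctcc
These letters stood in 1.44% of the genes of the table.

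Enzymes that shape fatty acids were lower as well. Of 19 tested genes 8 fell (42.1%, against 4.06% of all tested genes) and none rose. *Scd1* and *Scd2*, desaturases that make oleate-type chains, fell from 83.6 and 66.3 CPM to 12.1 and 11.7 and from 714 and 958 to 239 and 242. The log2 FC of *Scd1* was -2.65 ± 0.18 (SE, with an FDR of 0.00160). *Fabp5*, a carrier of fatty acids, measured 59.4 CPM in WT replicate 1 and 129 in WT replicate 2, and 22.7 and 20.4 in E6 (log2 FC -2.13 ± 0.33, FDR 0.0125). *Lpin1*, a phosphatidate phosphatase, fell from 11.8 and 14.3 CPM to 2.15 and 3.11. *Fasn*, the synthase of palmitate, did not pass, at 598 and 975 CPM against 734 and 730, nor did *Srebf1*, a regulator of the pathway, at 46.0 and 123 against 88.8 and 95.8, where E6 lay between the WT libraries. With 1 E6 library left out 1 or 2 of the 8 kept the call.

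Genes of the ATF4 response, which cells raise when amino acids are short or the endoplasmic reticulum is under stress, were lower in E6 after adhesion. Of 30 tested genes 9 fell (30%, against 4.06% of all tested genes) and none rose, and the median log2 FC was -0.56. With WT replicate 1 left out, 17 fell, with a median of -0.71. *Cebpb*, a transcription factor, measured 23.1 and 31.6 CPM in WT and 8.32 and 10.3 in E6, with log2 FC -1.56 ± 0.24 (SE, with an FDR of 0.0129). *Nupr1*, a small stress protein, fell from 34.0 and 39.0 CPM to 10.1 and 19.1, and *Aldh1l2*, a mitochondrial enzyme of folate metabolism, from 14.6 and 13.1 to 6.17 and 5.20. *Asns*, asparagine synthetase, named as a well-known ATF4 target, fell from 289 and 294 CPM to 141 and 155. *Atf4* itself measured 327 and 451 CPM against 270 and 319 and did not pass with both WT libraries (log2 FC -0.40 ± 0.17, FDR 0.169). Without E6 replicate 1, or without E6 replicate 2, 0 of the 9 kept the call, with FDR of up to 0.253.

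Before adhesion 3 of the 30 were lower and the median was -0.28. In the fit without WT replicate 1, the WT library after adhesion had 24 h of culture and those before adhesion 12 h. There the effect of adhesion in WT cannot be told apart from culture time. With both WT libraries, the difference of the effects passed in none of the 30. With WT replicate 1 left out it passed in 12 of 30 (40.0%, against 2.20% of all tested genes), and in all 12 E6 was lower relative to WT after adhesion than before. *Cebpb* and *Asns* were among them, with differences of -0.98 (FDR 0.0252) and -0.48 (FDR 0.0167) on the log2 scale.

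The promoter of *Asns*, at chr6:7693160-7693459 on the minus strand, holds a match to the C/EBP-ATF response element TGATGNAA, in capitals, from 23 bases before the gene start.
Asns: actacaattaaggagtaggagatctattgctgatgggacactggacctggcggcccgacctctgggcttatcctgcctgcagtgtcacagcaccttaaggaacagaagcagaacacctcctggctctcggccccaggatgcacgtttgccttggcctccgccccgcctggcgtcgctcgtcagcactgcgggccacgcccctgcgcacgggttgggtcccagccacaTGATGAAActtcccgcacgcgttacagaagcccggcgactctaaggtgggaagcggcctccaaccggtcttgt
Of 24 ATF4 genes with a RefSeq promoter, 10 held these letters on either strand, 4 of the 8 that fell and 6 of the other 16, against 4.51% of all genes of the table.

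**Figure D3:**
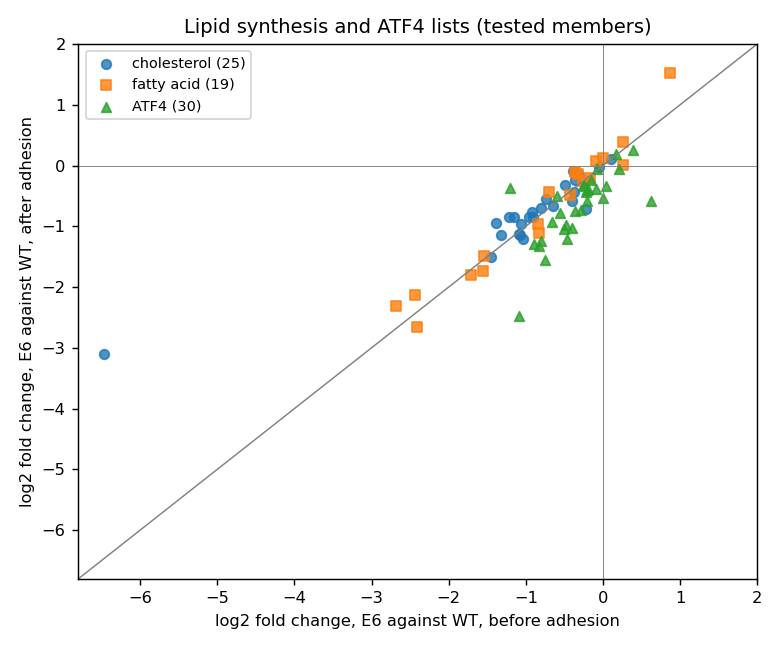
Log2 FC of E6 against WT before adhesion (x axis) and after it (y axis) for the tested members of the cholesterol, fatty acid and ATF4 lists, 1 mark per gene, with the line of equal change. Cholesterol and fatty acid genes lie along the line, with medians of -0.90 and -0.42 before and -0.77 and -0.43 after adhesion, while ATF4 genes lie mostly below it, with -0.28 and -0.56.

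Of 28 tested glycolysis and hypoxia genes 4 fell (14.3%, against 4.06% of all tested genes) and 2 rose (7.14%, against 4.85%). Without WT replicate 1 the median log2 FC of the list was -0.38. The 2 that rose were *Hk2*, a hexokinase, and *Pfkfb3*, a regulator of phosphofructokinase, with log2 FC of 0.67 and 0.68. The 4 that fell, *Ddit4*, *Bnip3*, *Bnip3l* and *Ankrd37*, are known to be induced by hypoxia. *Ddit4*, an inhibitor of mTORC1, measured 71.6 and 157 CPM in WT and 15.4 and 24.6 in E6 (log2 FC -2.52 ± 0.47, SE, FDR 0.0214), and *Bnip3*, a mitophagy receptor, 26.8 and 38.9 against 8.14 and 11.6. *Ankrd37* fell from 1.28 and 1.35 CPM to 0.359 and 0.239. The summed level was 7442 CPM in WT replicate 1 and 12658 in WT replicate 2, against 9173 and 9060 in E6, so that the sum depended on the WT library. Without either E6 library after adhesion 0 of these 6 calls held, and without WT replicate 1 *Hk2* was under the FC limit (log2 FC 0.53).

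Of 7 tested laminin chains, which form the mesh of basement membranes, 3 rose (42.9%, against 4.85% of all tested genes) and none fell. *Lama3* measured 474 and 406 CPM in WT and 787 and 840 in E6 (log2 FC 0.89 ± 0.13, SE, FDR 0.0102), and *Lamb1* 159 and 168 against 264 and 272. Of 16 collagens 3 rose (18.8%) and 1 fell (6.25%, near the 4.06% of all tested genes). *Col7a1*, the chain of anchoring fibrils, measured 255 and 382 CPM against 716 and 766, while *Col4a3* and *Col4a4* of basement membrane had log2 FC of 0.71 and 0.60, and *Col12a1* fell from 273 and 279 CPM to 163 and 159. *Col4a4* was under the FC limit without WT replicate 1 (0.48).

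Of 19 other matrix glycoproteins 6 rose (31.6%, against 4.85% of all tested genes) and none fell. *Tnc*, which codes for tenascin-C, a protein that modulates adhesion, measured 89.6 and 103 CPM in WT and 392 and 423 in E6, with log2 FC 2.08 ± 0.16 (SE, with an FDR of 0.00220). *Spp1*, which codes for osteopontin, rose from 123 and 90.6 CPM to 233 and 211, and *Tgfbi* from 0.284 and 0.290 to 1.38 and 1.31. Of 12 integrin subunits 5 rose (41.7%) and none fell. *Itga6*, which binds laminins, measured 137 and 128 CPM against 254 and 265, *Itga2*, a collagen receptor, 2.98 and 2.08 against 10.8 and 12.4, and *Itga4*, a subunit of leukocyte receptors for VCAM-1, 1.42 and 0.919 against 8.44 and 6.33. Before adhesion *Itga4* had at most 0.0694 CPM, while *Itga2* had 1.15 and 1.77 CPM in WT and 7.63 and 8.68 in E6. With either E6 library after adhesion left out, 0 of the 3 laminin, 0 of the 4 collagen and 0 of the 5 integrin calls were kept, and 1 of the 6 calls of other matrix glycoproteins (highest FDR 0.268).

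Of 43 tested genes of cell contacts 6 rose and 2 fell, 14% and 4.65% against 4.85% and 4.06% of all tested genes. *Pvrl3*, *Icam1* and *Vcam1* led the rises. *Cldn9*, a claudin of tight junctions, measured 5.75 and 7.11 CPM in WT and 0.120 and 0.119 in E6, with log2 FC -5.67 ± 0.41 (SE, with an FDR of 0.00185), and *Cd24a*, a small surface glycoprotein, 450 and 397 against 262 and 245. *Cd44*, the hyaluronan receptor, did not pass, at 642 and 415 CPM against 812 and 859, and passed without WT replicate 1 (log2 FC 1.04, FDR 2.59e-10). *Itga4*, which thymocytes are also known to express, and *Tgfbi*, with no count before adhesion, are among the 231 genes nearly absent before adhesion.

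Of 25 tested proteases and inhibitors 6 rose (24%, against 4.85% of all tested genes) and 1, *Timp3*, fell. *Serpinb2*, an inhibitor of plasminogen activators, rose from 31.6 and 26.9 CPM to 209 and 211, a log2 FC of 2.85 ± 0.16 (SE, with an FDR of 0.000714). *Mmp12*, a macrophage elastase, measured 0.355 and 0.581 CPM against 2.33 and 2.45. It is among the 231 genes nearly absent before adhesion, with at most 0.0607 CPM there. With such genes left out, 5 of the 6 rises remained. Among 19 genes of glypicans, syndecans and sulfation enzymes 4 rose (21.1%) and 2 fell (10.5%, against 4.06% of all tested genes). *Sdc3*, which codes for syndecan-3, and the sulfotransferase *Chst7* rose from 8.02 and 10.6 CPM to 41.6 and 39.6 and from 13.1 and 17.4 to 37.4 and 35.8. *Gpc4*, a glypican, measured 5.68 and 5.42 CPM in WT and had no count in either E6 library, at least 61.6-fold lower against a floor of 3 counts over the group. *Sulf2*, a heparan sulfatase, fell from 17.2 and 14.0 CPM to 3.05 and 2.93. Of 16 Eph receptors and ephrins 2 fell (12.5%, against 4.06%) and none rose. *Epha7* measured 8.80 and 3.73 CPM in WT and had no count in E6 (at least 64.5-fold lower). *Efna2* had 33 counts in WT and 3 in E6 (ratio 10.6, counting interval 3.32 to 53.9).

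**Figure D4:**
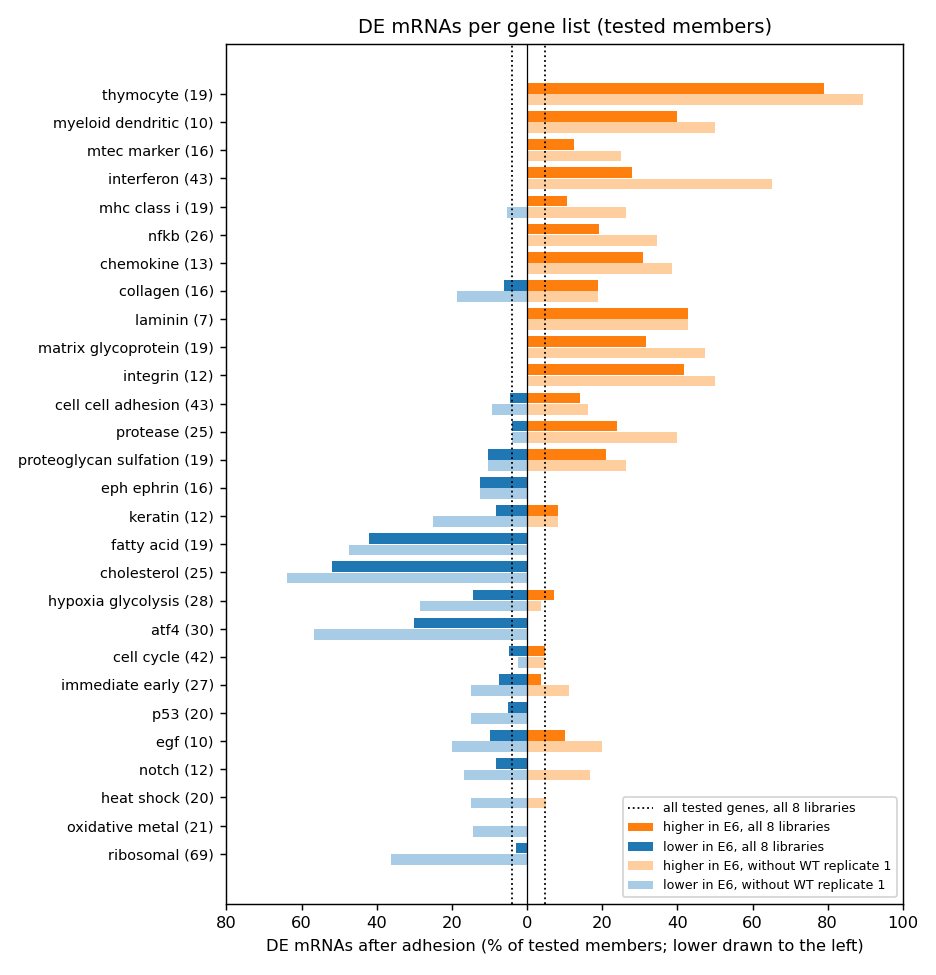
Share of the tested members of each gene list that were DE after adhesion, with rises to the right and falls to the left, in the fit of all libraries (dark) and without WT replicate 1 (pale). Dotted lines mark the shares over all tested genes, 4.85% higher and 4.06% lower. The number of tested members is in parentheses, and the cholesterol list reaches 52.0% lower without any rise.

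The remaining lists had few calls. Of 42 cell cycle genes 4.76% were called each way, near the shares over all tested genes. The 2 that rose were *Ccne1* and *Ccnd3*, with log2 FC of 0.77 and 1.03, and the 2 that fell *Ccna2* and *Ccnb2*, with -0.87 and -0.66, which without WT replicate 1 were -0.57 and -0.50 and under the FC limit. Of 27 immediate early genes 3.7% rose and 7.41% fell. *Dusp5*, a phosphatase of ERK, rose from 10.9 and 16.0 CPM to 37.8 in each E6 library, and *Klf4* and *Jun* fell. *Jun* was near both limits, with an FDR of 0.0485 and an FC of 1.51. Its log2 FC lay between -0.74 and -0.46 with 1 library left out. Of 12 keratins 8.33% were called each way. *Krt6a* rose and *Krt13* fell, the latter from 4.40 and 6.05 CPM to 1.5 and 2.21. Of 20 p53 targets *Zmat3* fell (5%, log2 FC -1.12), and of 12 Notch genes *Hey2* fell (8.33%, -1.85). Of 10 EGF genes 10% were called each way. *Hbegf*, a ligand, rose from 67.8 and 68.9 CPM to 157 and 135 while the receptor *Erbb3* fell (-0.67). Beside 4.85% and 4.06% of all tested genes, each of these shares comes from 1 or 2 genes.

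Heat shock and ribosomal sums differed between the WT replicates. None of 20 heat shock genes passed. Their summed level was 24838 CPM in WT replicate 1 and 16364 in WT replicate 2, against 15565 and 15136 in E6, and *Hsp90ab1* alone was at 10321 and 5625 CPM against 5070 and 4930, while *Hspa8* was at 3350 and 3344 against 3007 and 2862. None of 21 oxidative stress genes passed, *Prdx1* at 214 and 384 CPM against 387 and 363 and *Txnrd1* at 517 and 364 against 316 and 326. Of 69 ribosomal protein genes 2 fell with both WT libraries (2.9%, against 4.06% of all tested genes), *Rps26* and *Rps28*, with log2 FC of -0.77 and -0.67. Without WT replicate 1, 25 fell (36.2%, against 7.05% of all tested genes), and with the GC correction 5 did. The ribosomal sum was 25133 CPM in WT replicate 1 and 41660 in WT replicate 2, with E6 between them at 29358 and 28604.

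The difference between E6 and WT was uneven along the genome. Over genes averaging 2 or more in log2 CPM, the median log2 FC was -0.39 on chromosome 10 (461 genes) and 0.31 on chromosome 5 (640 genes). Against WT replicate 1 and WT replicate 2 taken singly these medians were -0.35 and -0.39 on chromosome 10, and 0.38 and 0.30 on chromosome 5. On chromosome 10, 90 of 541 tested genes were lower and 13 higher, and on chromosome 5, 101 of 753 were higher and 9 lower. These shares, 16.6% lower and 13.4% higher, stand beside 4.06% and 4.85% of all tested genes. All 12 windows of 10 Mb on chromosome 10 had a median below 0, from -0.63 to -0.26. On chromosome 5, 13 of 14 windows lay above 0, with 1 at -0.11.

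Chromosome 3 was split. In its first 80 Mb, a border drawn after the values were seen, the median was -0.64 over 128 genes, and 54 of 150 tested genes were lower and 4 higher. Beyond 80 Mb it was -0.07 over 336 genes, with 18 lower and 19 higher. Without WT replicate 1 these medians were -0.40 and 0.03, and before adhesion -0.44 and -0.0014. On the other 17 chromosomes the medians lay between -0.19 and 0.05. Chromosomes 3, 5 and 10 held 308 of the 1040 DE mRNAs, and 732 lay elsewhere. In that order, these chromosomes hold 556, 753 and 541 of the 11672 tested genes. The shares lower in E6 were 12.95%, 1.195% and 16.64%, against 4.06% of all tested genes. Those higher were 4.137%, 13.41% and 2.403%, against 4.85%. *Timp3* and *Ddit4*, like *Aire*, are on chromosome 10, and the *Oas* genes on chromosome 5. The same medians before adhesion were -0.33 on chromosome 10 and 0.35 on chromosome 5. The number of copies of these chromosomes was not tested.

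**Figure D5:**
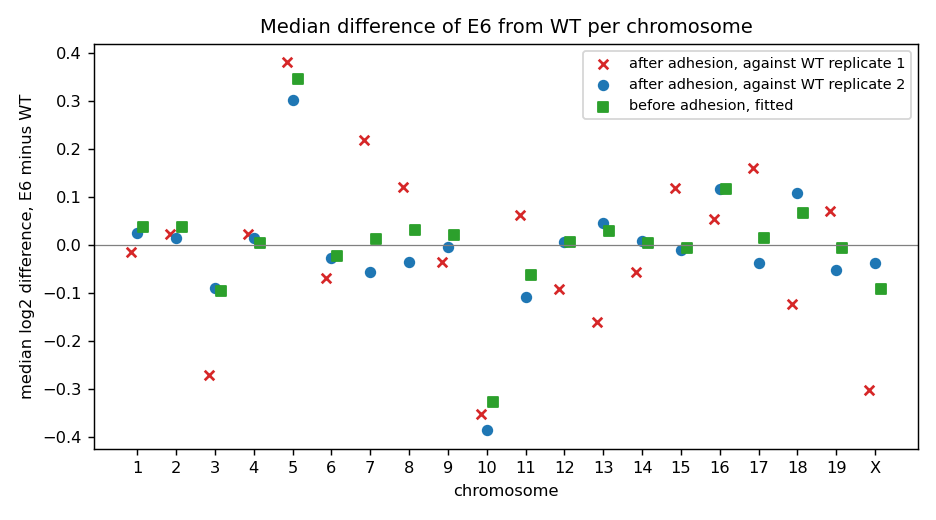
Median log2 difference of E6 from WT per chromosome, over genes averaging 2 or more in log2 CPM, after adhesion against each WT library and before adhesion as fitted. Chromosome 10 lies at -0.35, -0.39 and -0.33 and chromosome 5 at 0.38, 0.30 and 0.35, while on the X chromosome the value against WT replicate 1, -0.30, stands apart from -0.04 against WT replicate 2.

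Before adhesion, 585 mRNAs (5.01%) were DE between E6 and WT, 2.45% higher and 2.56% lower in E6, and 438 of them were also DE after adhesion. Of the 444 mRNAs higher after adhesion that had more than 3 counts in some library before it, 424 had a log2 FC above 0 before adhesion, and of the 474 lower ones 472 had a log2 FC below 0. The leading genes were much alike in both conditions. *Timp3* had a log2 FC of -5.22 before and -5.25 after adhesion, *Chst1* 4.59 and 4.93, *Scd1* -2.41 and -2.65, *Tnc* 2.07 and 2.08, and *Serpinb2* 2.79 and 2.85. The 2 contrasts share no library, but the 2 WT groups and the 2 E6 groups come from the same cell lines.

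No mRNA passed the test of the difference between the 2 contrasts in the fit of all libraries (0%), and 297 had an unadjusted p under 0.05. DESeq2 called 3, *Jun*, *Hmha1* and *Atp2a3*. In the fit without WT replicate 1, the WT library after adhesion had 24 h of culture and those before adhesion 12 h. Every difference in that fit therefore includes culture time. Without WT replicate 1 edgeR called 257 (2.20%), and without WT replicate 2 it called 5480. *Jun*, a subunit of the AP-1 factor, was lower in E6 after adhesion, at 122 and 140 CPM in WT and 78.7 and 95.7 in E6, and higher before it, at 48.1 and 53.3 in WT and 91.4 and 107 in E6. Each condition's groups stood apart, in opposite order. The difference was -1.56 on the log2 scale (FDR 0.988), or -1.63 without WT replicate 1.

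*Hmha1*, which codes for a minor histocompatibility antigen of blood cells, measured 2.48 and 6.58 CPM in WT and 31.8 and 26.9 in E6 after adhesion, with a log2 FC of 2.66 after and -0.28 before it. *Tubb2b*, a tubulin, had log2 FC of 1.47 and -1.21. *Zfp704* was low in E6 in both conditions, with log2 FC of -3.56 after adhesion and -7.89 before it, where E6 had at most 0.139 CPM. *Fas*, a death receptor, and *Bmf*, of the BCL-2 family, differed before adhesion (-1.47 and -2.86) and did not pass after it (-0.14 and -0.28). *P4ha2*, a collagen hydroxylase, and *Mesdc1* were higher in E6 before adhesion (1.49 and 0.70), with 0.12 and -0.08 after it. *Lmo4*, a LIM-domain regulator, and *Ccdc91* were lower after adhesion (-1.03 and -0.70), with -0.21 and -0.04 before it. The FDR of the difference was 0.988 in all 10 of these genes, *Jun* included, in the fit of all libraries. These 10 were chosen by their p in that fit, which shares its other libraries with the fit without WT replicate 1. The latter is therefore no separate test of them. The differences in it were -1.63 for *Jun*, -0.75 for *Mesdc1* and -0.51 for *Ccdc91*.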

How the data were processed

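Total RNA of mTEC 3.10 and clone E6, with and without thymocytes, was sequenced, and per the labels and methods the authors aligned paired-end reads to mm10 (GRCm38) with STAR 2.5.0a and deposited raw HTSeq counts per gene, without normalization. The gene annotation and strand setting are not given in the sources used here. Samples were grouped by title. Positions and GC content came from GENCODE vM21 (22740 of 24052 symbols matched directly, 916 by an older symbol). In 1 library before adhesion, 18 symbols turned into dates were restored from the shared gene order.

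Counts were fitted with edgeR 4.0.16 (R 4.3.3): filterByExpr, TMM, quasi-likelihood with 1 mean per condition over all 8 libraries. Calls required FC of at least 1.5 and FDR (Benjamini-Hochberg, 11672 tested genes) below 0.05. SE is the absolute log2 FC divided by the square root of F. CPM are scaled by TMM, and log2 CPM used a prior count of 2. Alternatives were RLE, DESeq2 1.42.0, voom with quality weights (limma 3.58.1), no filter, no FC limit, a replicate block, a lowess GC correction (span 0.3), the 4 libraries alone and each library left out. Culture time as a term, the GC correction without WT replicate 1, and lists without genes absent before adhesion were added after seeing the data. The fit was tested on simulated counts.

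Members and lists were chosen with earlier results of these data known. The 10 largest rises and falls were taken among DE mRNAs that held without WT replicate 1 and with the GC correction. These also had no overlap of the groups and a mean log2 CPM of at least 1. Other genes named were the 5 most abundant DE mRNAs each way, and up to 3 called members of each list each way (or the 2 most abundant). Also named were genes of the study's text and the 5 smallest p each way in the difference. The last were the 5 genes each way that most separated the WT libraries. *Srebf1*, *Srebf2*, *Fasn*, *Atf4*, *Asns*, *Bcl11b*, *Thy1*, *Oas1a*, *Bnip3l* and *Atp2a3* were added outside this rule. Some genes that the rule chose are not reported here. Counting intervals and floors (3 counts) cover counting error only, since reads carry no molecular identifiers. Protein assays, RT-qPCR and isoforms were not analysed here.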

Additional observations from a re-analysis of the deposited data

Results flagged for a closer look

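In 8 of the named genes every E6 library lay on 1 side of both WT libraries before adhesion and on the other side after it. *Jun* went from higher to lower in E6, with a difference between the log2 FC after and before adhesion of -1.56. *Mesdc1* did so as well, with -0.78. *Vim*, *Birc3*, *Cxcl3*, *Tcf7*, *Tubb2b* and *Atp2a3* went from lower to higher, with differences of 3.49, 2.43, 5.92, 3.52, 2.67 and 4.34. *Vim*, *Cxcl3*, *Tcf7* and *Atp2a3* were at or under 0.811 CPM in each library before adhesion, where a few counts set the order. The edgeR test of the difference gave an FDR of 0.988 for each of the 8 genes in the fit of all libraries. Without WT replicate 1, the WT library after adhesion had 24 h of culture and those before adhesion 12 h. There the effect of adhesion in WT cannot be told apart from culture time. With WT replicate 1 left out, the differences ran from -1.63 for *Jun* to 5.62 for *Cxcl3*. The 8 were picked for this reversal in the same libraries, and some by their p in this test. That fit is therefore no separate test of them. Such a reversal of order was found in 275 of the 11672 tested genes.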

How the results depend on the processing

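The number of DE mRNAs after adhesion, 1040, ranged from 27 to 4410 with 1 library left out, with 20 to 2519 higher and 7 to 1891 lower. It was 228 with voom (82 higher, 146 lower), 0 in the 4 libraries alone (0 higher, 0 lower) and 1789 with the GC correction without WT replicate 1 (994 higher, 795 lower), an alternative chosen after seeing the data. Before adhesion the count was 585, 37 to 1503 with 1 library left out, 1591 with voom, 903 with the GC correction, 1484 with that correction without WT replicate 1, and 345 with culture time as a term, also chosen after seeing the data. With the replicate number as a block it was 383 before and 721 after adhesion. The numbers did not pair the libraries, since the correlation of their deviations was 0.0232 between WT and E6 after adhesion and -0.0794 to 0.222 over all pairs of groups. The difference of the effects gave 0 to 5480 mRNAs with 1 library left out, 3 with DESeq2 and 152 with the GC correction without WT replicate 1. The distance ratio was 2.27 by 1 minus the Pearson correlation and 2.49 over 500 genes. The median was -0.059 on chromosome 3 and -0.36 on chromosome 10 without WT replicate 1, and -0.37 on chromosome 10 with the GC correction. The cause of these changes was not tested.

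None of the 108 called genes chosen for naming changed sign in any setting, and 17 genes not called did. The 108 were chosen for passing the FDR and FC limits, with groups that did not overlap. A stable sign was favoured by that choice and is no separate support for them. With 1 library left out, the lowest and highest log2 FC were -0.77 and 0.26 for *Prss16*, -0.0052 and 0.83 for *Prdx1*, -0.052 and 0.40 for *Mbp*, -0.64 and 0.35 for *Bmf*, -0.36 and 0.041 for *Fas*, -1.97 and 0.23 for *Ppig*, -0.90 and 1.23 for *2610203C20Rik* and -1.94 and 0.18 for *Nexn*. They were -1.89 and 0.14 for *Pura*, -0.34 and 2.17 for *Rps14*, -0.20 and 1.89 for *Atp5g2*, -0.59 and 1.48 for *Rpl36*, -0.76 and 1.29 for *Rpl37a*, -0.51 and 1.51 for *Ndufb11*, -0.38 and 1.03 for *Srebf1*, -0.42 and 0.42 for *Srebf2* and -0.38 and 0.31 for *Fasn*. With the GC correction and without WT replicate 1, the values that changed sign were -0.040 for *Prdx1*, -0.050 for *Mbp*, 0.13 for *Ppig*, 1.23 for *2610203C20Rik*, 0.10 for *Nexn*, 0.12 for *Pura*, -0.30 for *Rps14*, -0.46 for *Rpl36*, -0.49 for *Ndufb11* and -0.31 for *Srebf1*. The others that did so were 0.0042 for *Fas* with the GC correction, 0.23 for *2610203C20Rik* and 0.16 for *Rpl37a* with voom, 0.053 for *Rpl37a* with the replicate block and 0.086 for *Rpl37a* with culture time as a term.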
